A study of Mus musculus with 9 samples.

Results

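Among the LSK cells of mouse bone marrow, the lineage-negative, c-Kit+, Sca1+ fraction that holds the blood stem and early progenitor cells, 990 of the 15975 cells that passed the quality limits (6.20%) carried the transcripts of G2 and mitosis. They were chosen by detection: at least 5 of the 7 genes Cdc20, Ccnb1, Ccnb2, Ube2c, Cenpf, Aspm and Cdkn3 had at least 1 unique molecular identifier (UMI, a tag that marks 1 captured RNA molecule) in the cell. The UMIs of these 7 genes therefore define the cells, and their levels are given as a description. In the following, cells that met the rule are called G2/M cells and the remaining 14985 are called the other cells. The study asked what happened to LSK cells of aged mice after systemic treatment with CASIN, an inhibitor of the activity of the small GTPase Cdc42, and sequenced single LSK cells from 3 groups of 3 samples each. All mice were C57BL/6. Young controls were 10 to 12 weeks old, and aged controls and CASIN mice were over 80 weeks old. CASIN was injected intraperitoneally at 25 mg/kg in cyclodextrin, 4 times at intervals of 24 h, with harvest on day 5, and both control groups received cyclodextrin alone. Cells were viably frozen and thawed before capture with 10x 3′ v3 chemistry. The labels name 2 sequencing batches: batch 1 held young 1, young 2, aged 1, CASIN 1 and CASIN 2, and batch 2 held young 3, aged 2, aged 3 and CASIN 3. The sources do not say whether a sample was 1 mouse or a pool, so p-values describe the spread between these samples.

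Entry into mitosis is driven by CDK1 bound to B-type cyclins, which accumulate through G2, and exit from it by the anaphase-promoting complex (APC/C), a ubiquitin ligase that marks the cyclins and securin for destruction. Between these steps chromosomes condense, kinetochores attach them to the spindle, and a checkpoint holds the APC/C back until attachment is complete. In bone marrow most long-term stem cells rest outside the cell cycle, and dividing cells are more common among the multipotent progenitors that come after them.

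The rule genes play successive parts in this sequence: Ccnb1 and Ccnb2 encode the B-type cyclins, Cdc20 encodes an activator of the APC/C and Ube2c the ubiquitin-conjugating enzyme that works with it, Cenpf encodes a protein of the outer kinetochore, Aspm a protein of the spindle poles, and Cdkn3 a phosphatase that acts on cyclin-dependent kinases. Promoters of G2/M genes are known for a late cell cycle element called the cell cycle genes homology region (CHR), read by MuvB complexes, and for CCAAT boxes, bound by NF-Y. All 7 rule genes were matched to a promoter in the RefSeq table (GRCm38.p6), and 5 of them are shown because their transcripts decide which cells are described. Each line holds the 200 bases before the transcription start, 5′ to 3′ on the gene's own strand, with capitals marking CHR-type letters, which are TTTGAA with its reverse complement TTCAAA and the palindrome TTTAAA, and the CCAAT box with its reverse complement ATTGG.
Cdc20, chr4:118437344-118437543, minus strand: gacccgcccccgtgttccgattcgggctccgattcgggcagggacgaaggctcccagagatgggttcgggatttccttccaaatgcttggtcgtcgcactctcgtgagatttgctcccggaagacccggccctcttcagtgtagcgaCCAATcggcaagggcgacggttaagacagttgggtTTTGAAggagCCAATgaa
Ccnb2, chr9:70421555-70421754, minus strand: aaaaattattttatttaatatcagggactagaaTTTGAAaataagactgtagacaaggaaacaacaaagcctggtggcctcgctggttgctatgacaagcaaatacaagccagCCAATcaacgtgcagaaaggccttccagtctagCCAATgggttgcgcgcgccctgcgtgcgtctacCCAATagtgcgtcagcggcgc
Cenpf, chr1:189688087-189688286, minus strand: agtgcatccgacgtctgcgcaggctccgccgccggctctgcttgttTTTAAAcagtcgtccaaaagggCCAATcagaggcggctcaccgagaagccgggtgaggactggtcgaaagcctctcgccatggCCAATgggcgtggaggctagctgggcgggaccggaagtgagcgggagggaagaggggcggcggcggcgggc
Aspm, chr1:139454573-139454772, plus strand: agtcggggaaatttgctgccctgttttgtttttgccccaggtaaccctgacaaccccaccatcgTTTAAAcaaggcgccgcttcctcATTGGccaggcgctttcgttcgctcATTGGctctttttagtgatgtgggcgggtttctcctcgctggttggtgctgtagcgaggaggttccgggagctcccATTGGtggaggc
Cdkn3, chr14:46760341-46760540, plus strand: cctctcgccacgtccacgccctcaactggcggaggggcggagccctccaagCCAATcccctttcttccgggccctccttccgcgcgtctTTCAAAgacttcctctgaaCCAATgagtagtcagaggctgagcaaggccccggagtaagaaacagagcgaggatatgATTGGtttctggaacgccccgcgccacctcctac
A CHR-type hexamer lay 18 bases before the start in Cdc20, with 1 CCAAT box upstream of it and 1 between it and the start. In Ccnb2, 3 CCAAT boxes began 87, 54 and 21 bases before the start. All 7 rule genes held both kinds of element in these 200 bases, as did 53.3% of the 15 matched genes of a list of cyclin and CDK1 regulators, 64.3% of 14 chromosome condensation genes and 34.6% of 26 spindle and cytokinesis genes. Shares were lower for 28 kinetochore and checkpoint genes (21.4%), 6 tubulin genes (16.7%) and 20 APC/C genes (15%). The cyclin, spindle, kinetochore and APC/C lists include rule genes, which are therefore counted again in these shares. Cdc20 and Ube2c are among the 3 APC/C genes that held both. Of 16 stem cell genes 18.8% held both, and of 27 polarity and spindle orientation genes 18.5%. Over all 19407 genes with a promoter in the table, 20.7% held a CHR-type hexamer, 34.1% a CCAAT box and 7.38% both. The DNA replication list, with 7.41% of 27 genes holding both, was near that share. Letters were matched on both strands, neighbouring elements may overlap, and a match is a description of the sequence.

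The number of G2/M cells ranged from 39 in aged 1 to 201 in young 2, and their summed UMIs from 1048210 to 5186086 per sample. G2/M cells held more RNA tags than the other cells, with medians of 25173 and 11312 UMIs over all libraries. A cell with few UMIs can miss genes it contains, so the detection rule favours deep cells. A further 216 barcodes with at least 5 of the 7 genes lay outside the quality limits, 141 of them above 40000 UMIs or 6000 genes and 74 above the limit of 10% mitochondrial UMIs, and 72 of these 74 came from batch 2. Libraries of a batch shared barcode sequences: 59 G2/M cells, 57 of them in batch 1 and 32 of them among the 68 of CASIN 1, had a barcode that also occurred in another library of the batch. For the 89 sequences found in 3 or more libraries of a batch, the copies held a median of 2.37% of the UMIs of the largest, and only 1 sequence met the G2/M rule in 2 libraries of a batch. The shares of G2/M cells, the detection of Mpo and the counts of genes called in G2/M cells are therefore also given without the shared barcodes, and the interaction was not fitted without them.

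Next to the rule, the cells carried the remaining machinery of G2 and mitosis, which matches their label. Levels are CPM, the counts of a gene scaled to a common total of the UMIs summed over the cells of a class in a sample, and 3′ tags count a molecule once whatever its length. Hmmr, which encodes a spindle assembly protein, stood at 129 CPM in G2/M cells and 5.16 CPM in the other cells as the mean of the 9 samples. Plk1, the kinase that promotes mitotic entry, stood at 42.9 and 1.58 CPM, and Top2a, the topoisomerase that untangles chromosomes, at 595 and 99.8 CPM. All 3 genes were higher in the G2/M cells of 9 of 9 samples. Of the spindle and cytokinesis list, 30 of 30 genes were more than 2-fold higher in G2/M cells, as were 30 of 33 kinetochore and checkpoint genes, 16 of 21 cyclin and CDK1 genes and 7 of 21 APC/C genes, against 3.38% of the 7894 genes with a mean of at least 10 CPM. The lists include the rule genes, and the counts describe genes of the cells that the rule selects, with no test. Over the APC/C list, most of it core subunits, the median ratio was 1.29, and Ube2s, a ubiquitin-conjugating enzyme that works with the complex, stood at 663 CPM against 244. Pttg1, which encodes securin, was an exception, with 33.0 CPM in G2/M cells and 31.6 CPM in the other cells.

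**Figure D1:**
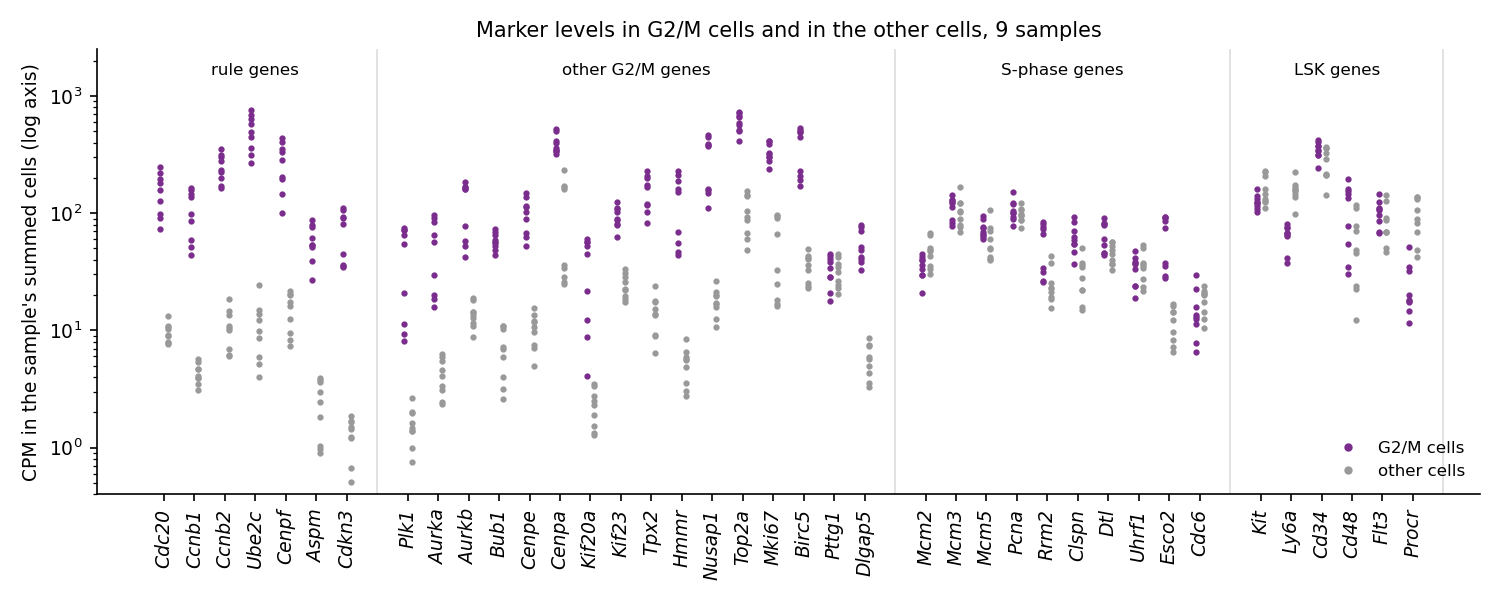
CPM (log axis) of 7 rule genes, other G2/M genes, S-phase genes and LSK genes in the summed G2/M cells (purple) and other cells (grey) of each of the 9 samples, 1 point a sample. The rule genes and Plk1, Hmmr and Top2a are far apart between the classes, Pttg1 and most S-phase genes overlap, and Procr is lower in G2/M cells (24.3 CPM against 93.9 CPM).

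For 6 of the 7 rule genes the batches did not overlap, and for Aspm they did (51.2 to 86.8 CPM in batch 1, 26.9 to 53.9 CPM in batch 2). Ccnb1 stood at 138, 163 and 44.1 CPM in young 1 to 3, at 145, 86.4 and 59.6 CPM in aged 1 to 3, and at 97.4, 157 and 51.8 CPM in CASIN 1 to 3. Its lowest values belonged to the 4 batch 2 samples. The split was wider for Plk1, at 54.7 to 74.5 CPM in batch 1 and 8.12 to 21.0 CPM in batch 2, and for Hist1h2ap, a replication-dependent H2A histone gene, at 2497 to 4263 CPM and 549 to 962 CPM. Cdkn1a, which encodes the CDK inhibitor p21, lay the other way, at 87.7 to 159 CPM in batch 1 and 377 to 544 CPM in batch 2. Over all genes of at least 10 CPM in G2/M cells, the ranges of the batches did not overlap for 56.7% of 7759, and the first principal component, with 71.3% of the variance, separated the batches. The gene tests below therefore have the batch as a term, and the shares are given by sample or within each batch.

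The edge of the rule was gradual. The 304 cells with exactly 5 of the 7 genes, just inside it, had 19.9 CPM of Plk1 and 107 CPM of Mcm5, a subunit of the replicative helicase, summed over all samples. The 356 cells with 4 genes, just outside it, had 13.4 CPM of Plk1 and 133 CPM of Mcm5. The 397 cells with all 7 genes had 77.4 CPM of Plk1 and 55.9 CPM of Mcm5. Median depth was 24574, 22744 and 26122 UMIs in these 3 sets. Of the 990 G2/M cells, 376 (38.0%) also had at least 5 of the 7 S-phase genes Rrm2, Clspn, Dtl, Uhrf1, Esco2, Cdc45 and Mcm10, so part of the cells held transcripts of both phases, and DNA content was not measured.

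G2/M cells carried less of the stem cell programme than the other cells. All 21 genes of the stem list had a lower mean over the samples in G2/M cells, the median ratio was 0.328, and the summed level was 592 ± 117 CPM against 1293 ± 414 CPM (SD, n = 9), lower in 9 of 9 samples. Hlf, a transcription factor of stem cells and the most abundant gene of the list, was higher in the G2/M cells of the 4 batch 2 samples, at 309 against 276 CPM in young 3, 122 against 116 CPM in aged 2, 187 against 159 CPM in aged 3 and 245 against 169 CPM in CASIN 3. These levels describe genes of the cells that the rule selects, with no test. To compare detection at equal depth, each cell was thinned to 4000 UMIs. Procr, the endothelial protein C receptor that marks long-term stem cells, then had a UMI in 8.48% ± 4.11 of G2/M cells and 28.2% ± 7.54 of the other cells (SD, n = 9 samples). Mecom, a transcription factor of stem cells, was detected in 20.8% and 34.8%. Both were lower in G2/M cells in 9 of 9 samples. Some genes of committed progenitors lay the other way: Mpo, the myeloperoxidase of the neutrophil lineage, was detected in 26.0% of G2/M cells and 12.3% of the other cells, Dntt, the terminal transferase of lymphoid progenitors, in 31.9% and 17.5%, and Cd48, a surface marker absent from long-term stem cells, in 28.4% and 14.2%. These 3 genes were more often detected in G2/M cells in 9 of 9 samples. Among stem-type cells outside G2/M, which should lack these 3 genes, a UMI was found in 0.882% to 10.7% for Mpo, 1.46% to 8.94% for Dntt and 1.08% to 11.5% for Cd48 across the samples at the same depth. Flt3, a lymphoid progenitor gene, was detected in 29.6% of G2/M cells and 23.0% of the other cells, higher in 7 of 9 samples. Itga2b, a megakaryocyte gene, was detected in 9.24% and 9.72%, higher in G2/M cells in 5 of 9. Without thinning, Mecom was detected in 63.2% of G2/M cells and 63.7% of the other cells, and Procr in 31.7% and 49.3%. Sca1, encoded by Ly6a and used in the sort, stood at 63.8 CPM in G2/M cells and 158 CPM in the other cells, and Kit at 125 and 163 CPM.

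The share of cells in G2/M was also compared between lineage classes. Stem-type cells (at least 2 of Procr, Hlf, Mecom, Fgd5, Meg3 and Mllt3 and no Flt3 after thinning to 4000 UMIs) were in G2/M in 2.79% ± 1.46, and Flt3-type cells (Flt3, the receptor of lymphoid-primed progenitors, with fewer than 2 stem genes) in 8.79% ± 1.95 (SD, n = 9). The difference was 6.00 percentage points, positive in 9 of 9 samples (two-sided exact sign-flip permutation test, p = 0.003906, the smallest that 9 samples allow). Flt3-type cells were the deeper class, with median UMIs of 10734 to 16832 per sample against 8785 to 12490, and with G2/M membership itself called at 8000 UMIs the shares were 1.76% and 4.57%, again higher in 9 of 9. Within stem-type cells the G2/M share was 4.62%, 3.57% and 3.89% in young, 0.484%, 3.82% and 3.91% in aged, and 1.81%, 1.55% and 1.45% in CASIN. CASIN samples lay below all young samples, by 2.42 percentage points (exact permutation test, two-sided, p = 0.1, the smallest that 3 against 3 allows), with differences of −2.41 in batch 1 and −2.43 in batch 2. The difference shrank to −1.27 points (exact permutation p = 0.2) with membership called at 8000 UMIs, with −1.68 in batch 1 and −0.47 in batch 2. Without the shared barcodes the share of CASIN 1 was 0.902% and the difference −2.80 points (exact permutation p = 0.1). These shares rest on 4.2 to 22.8 G2/M cells per sample, as means over 5 draws of the thinning. Aged 1 was the lowest of all 9 samples, and aged 2 and aged 3 lay within the young range. Within Flt3-type cells CASIN minus young was −0.59 points (exact permutation p = 0.7), with −0.48 in batch 1 and −0.83 in batch 2. Without the shared barcodes it was −1.74 points (exact permutation p = 0.2).

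The question of whether fewer aged LSK cells divide, and whether CASIN alters this, was addressed by the share of G2/M cells among all filtered cells. In young 1 it was 8.85% (95% Clopper-Pearson interval 7.69 to 10.1), in young 2 9.09% (7.92 to 10.4) and in young 3 5.86% (4.60 to 7.33). In aged 1 it was 2.49% (1.77 to 3.38), in aged 2 7.81% (6.57 to 9.19) and in aged 3 5.08% (4.10 to 6.21). In CASIN 1 it was 6.08% (4.75 to 7.65), in CASIN 2 6.38% (5.29 to 7.61) and in CASIN 3 3.4% (2.72 to 4.20). Aged 1 was lowest and young 2 highest, and all 3 groups overlapped. The intervals cover counting error only. Means were 7.93% ± 1.80 in young, 5.12% ± 2.66 in aged and 5.29% ± 1.64 in CASIN (SD, n = 3).

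Aged minus young was −2.81 percentage points (two-sided exact permutation test, p = 0.2). With 3 samples against 3 the smallest possible p is 0.1, so this test cannot decide whether the groups differ. The difference was −6.49 in batch 1, where aged 1 is the only aged sample, and 0.58 in batch 2. CASIN and aged cells had a difference of 0.16 points (exact permutation p = 1), made of 3.74 in batch 1 and −3.04 in batch 2. Between CASIN and young cells the difference was −2.65 points (exact permutation p = 0.3), with −2.74 and −2.46 in the batches. Without the shared barcodes CASIN 1 fell from 6.08% to 3.47%, which turned the CASIN and aged difference to −0.65 (exact permutation p = 0.7), while without only those barcodes that held under 10% of the UMIs of the same sequence elsewhere it was 0.19. With a limit of 5% mitochondrial UMIs, the young shares were 9.02%, 9.23% and 9.12%, the CASIN shares 6.84%, 6.84% and 6.30% and the aged shares 2.68%, 12.7% and 7.33%. At that limit CASIN lay below young in every sample (−2.46 points, exact permutation p = 0.1, the smallest possible), with −2.28 in batch 1 and −2.82 in batch 2. The same exact permutation p was reached with 4 of 7 genes required (−4.26 points, −4.002 and −4.78 in the batches) and without upper limits on UMIs and genes (−3.01 points, −2.45 and −4.12 in the batches). It was not reached at equal depth. With cells thinned to 8000 UMIs, CASIN minus young was −0.98 points (exact permutation p = 0.7), with −1.43 in batch 1 and −0.09 in batch 2. With cells thinned to 4000 UMIs it was −0.94 points (exact permutation p = 0.5), with −1.46 in batch 1 and 0.09 in batch 2. Aged minus young was −1.46 points at 8000 UMIs (exact permutation p = 0.5). Among barcodes above the 10% limit, 2 of 2733 in batch 1 and 72 of 13039 in batch 2 (0.552%) had 5 of the 7 genes, and the part of these in the group values was not tested.

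**Figure D2:**
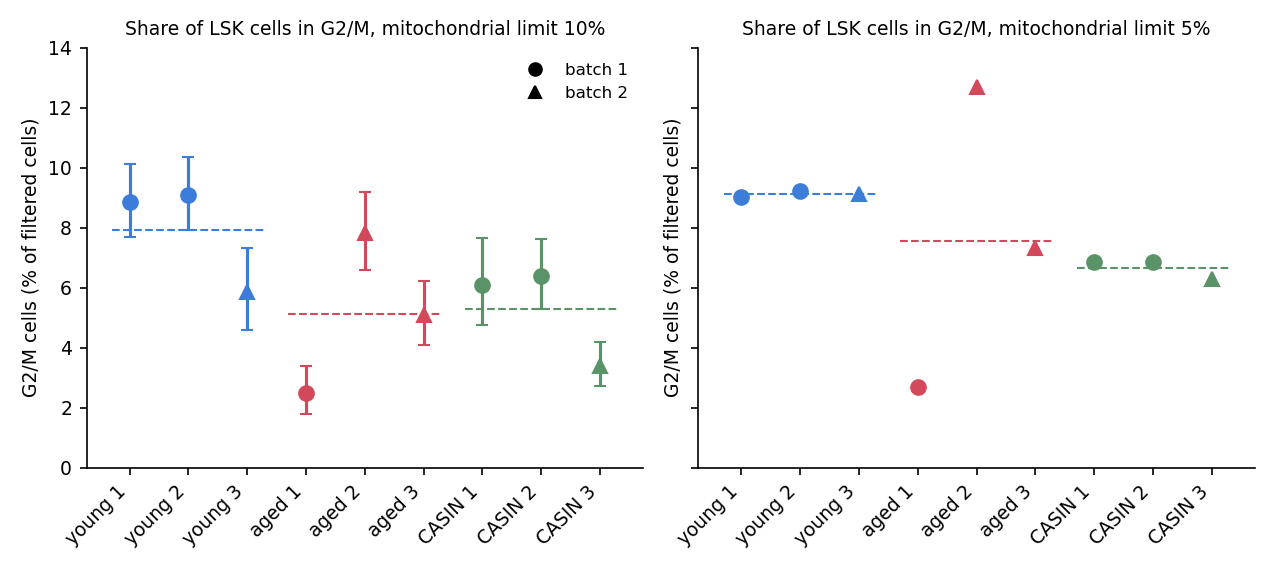
Percent of filtered LSK cells in G2/M in each sample, at mitochondrial limits of 10% (left, bars are 95% Clopper-Pearson intervals) and 5% (right), with dashed lines at group means, circles for batch 1 and triangles for batch 2. The groups overlap at 10%, and at 5% the 3 CASIN samples lie between 6.30% and 6.84%, below the young samples at 9.02% to 9.23%, while aged samples span 2.68% to 12.7%.

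Within G2/M cells, the 7 lineage genes were compared at 4000 UMIs. Mpo had a UMI in 21.8%, 28.8% and 27.0% of G2/M cells in young, in 33.3%, 34.7% and 29.8% in aged and in 20.6%, 18.8% and 19.3% in CASIN. All aged samples lay above all CASIN and all young samples. CASIN was 13.1 percentage points below aged (−13.6 in batch 1, −13.0 in batch 2), with p = 0.1 in the exact permutation test, the smallest possible, and 0.7 after Benjamini-Hochberg adjustment over 7 genes. The background of Mpo, its detection in stem-type cells outside G2/M, also differed between samples. It was 4.85%, 6.07% and 10.7% in young, 0.882%, 9.76% and 9.97% in aged and 1.89%, 1.90% and 2.61% in CASIN. The part of this background in the differences of CASIN from aged and from young was not tested. Without the shared barcodes CASIN 1 stood at 27.2% for Mpo, and the difference was −11.9 points (exact permutation p = 0.1). For Procr the young samples had 8.42%, 6.00% and 12.1%, the aged samples 5.13%, 9.55% and 17.3% and the CASIN samples 7.35%, 4.17% and 6.27%, so the groups overlapped. CASIN minus aged was 0.64 points for Procr in batch 1 and −7.17 in batch 2. All CASIN samples also lay below all young samples for Mpo (−6.33 points, exact permutation p = 0.1, adjusted p = 0.56), but not without the shared barcodes, where CASIN 1 exceeded young 1 and young 3 (−4.72 points, exact permutation p = 0.3). For the other 5 genes (Mecom, Flt3, Dntt, Itga2b and Cd48) the groups overlapped in every comparison. Over all samples Mecom had a UMI in 15.9% to 29.6% of G2/M cells, Flt3 in 20.9% to 41.2%, Dntt in 20.3% to 50.3%, Itga2b, the megakaryocyte integrin, in 3.60% to 12.6% and Cd48 in 9.40% to 45.1%.

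Between aged and young G2/M cells, edgeR's quasi-likelihood test on the summed UMIs with batch as a term called 58 of 9695 genes at a Benjamini-Hochberg adjusted p under 0.05 (0.598%), 49 higher in aged (0.505%) and 9 lower (0.0928%). The count moved with the processing, to 55 with DESeq2, 47 without the shared barcodes (41 of them among the 58), 23 with no upper limits on UMIs and genes, 344 with no filter on low counts and 0 with no batch term, and from 27 to 102 when 1 sample was left out. The genes higher in aged G2/M cells included 4 of 6 MHC class II genes, 5 of 16 genes known to be raised in aged stem cells and 4 of 23 immediate early genes. The 8 cell cycle lists covered cyclins and CDK1, APC/C, kinetochore and checkpoint, spindle and cytokinesis, tubulins, chromosome condensation, DNA replication and clustered histones. They held 179 tested genes besides the rule genes. Of these 0 were called, beside 0.598% of all genes, so that 0 of 179 is near the background. The rule also selects the cells by transcripts of the mitotic machinery. An edgeR unadjusted p under 0.05 was found for 15 of the 179 (8.38%), against 11.6% of all genes. The median log2 fold change of the 179 genes was −0.03, beside 0.02 over all genes. The values ran from −0.71 for Cdc6, a replication licensing factor, to 0.76 for the histone gene Hist1h2ag. Cenpa, the centromeric histone H3 variant, had a log2 fold change of −0.08 ± 0.16 (SE), and Cks2, the CDK1-binding subunit, of 0.13 ± 0.12.

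The MHC class II genes, which encode the antigen-presenting complex and its chaperones, gave 4 calls among 6 tested genes, all higher in aged cells, against 0.505% of all genes (median log2 fold change 1.43, beside 0.02 over all genes). In aged 1, the only aged sample of batch 1, their level rested largely on 1 cell. H2-Aa, at chromosome 17, 34282744 to 34287823 on GRCm38, stood at 20.1, 20.2 and 17.8 CPM in young, 71.6, 92.3 and 60.6 CPM in aged and 36.6, 56.5 and 54.9 CPM in CASIN. Every CASIN sample lay above every young sample and every aged sample above every CASIN sample, but 44 of the 75 UMIs of aged 1 came from 1 cell, without which aged 1 stood at 30.4 CPM, above the young and below the CASIN samples. H2-Aa was 1.93 ± 0.22 higher in aged than in young on the log2 scale (SE, adjusted p = 0.00121), with 1.83 and 2.02 in the batches. Of the young G2/M cells 52, 41 and 16 had a UMI of it, and of the aged cells 13, 76 and 45. H2-Eb1, the class II beta chain gene next to it, stood at 12.7, 8.86 and 8.12 CPM in young and 48.7, 43.1 and 35.9 CPM in aged (log2 fold change 2.16 ± 0.26, adjusted p = 0.00193). H2-Ab1 rose by 0.93 ± 0.12 (adjusted p = 0.00375) and Cd74, the invariant chain, by 2.09 ± 0.37 (adjusted p = 0.0178), a call that held in 16 of 25 alternative settings and was lost without aged 1 (1.42, adjusted p = 0.187) and without young 1, young 2 or young 3 (adjusted p from 0.0534). The same cell held 36 of the 51 UMIs of H2-Eb1 in aged 1, 79 of the 156 of H2-Ab1 and 180 of the 222 of Cd74, and without it aged 1 stood at 14.7, 75.6 and 41.2 CPM, beside young ranges of 8.12 to 12.7, 66.5 to 81.8 and 18.8 to 42.8 CPM. In a fit without this cell, made after seeing the data, 1 of the 6 genes was called, H2-Aa at 1.51 (edgeR adjusted p = 0.0374), and the calls of H2-Eb1 (1.57, adjusted p = 0.0724), H2-Ab1 (0.56, adjusted p = 0.262) and Cd74 (1.02, adjusted p = 0.341) were lost. H2-DMa, whose product loads peptides and which was the most abundant gene of the list, had a log2 fold change of −0.02. In a fit without aged 1 altogether the calls of H2-Aa (1.95, adjusted p = 0.00718), H2-Eb1 (2.07, adjusted p = 0.0123) and H2-Ab1 (0.91, adjusted p = 0.0167) held. H2-Aa and H2-Eb1 also rose in the other cells, by 1.38 and 1.497.

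Genes reported as raised in aged stem cells gave 5 calls among 16 tested, all higher in aged cells, against 0.505% of all genes, and the median log2 fold change of the list was 1.85, beside 0.02 over all genes. Selp, which encodes P-selectin, stood at 10.8, 6.18 and 13.2 CPM in young, 30.5, 35.9 and 52.4 CPM in aged and 15.6, 18.4 and 24.1 CPM in CASIN. Aged samples lay above both other groups, and CASIN samples above young. Selp was 1.81 ± 0.25 higher in aged than in young on the log2 scale (SE, adjusted p = 0.00375). Aldh1a1, a retinaldehyde dehydrogenase, stood at 3.09, 3.09 and 4.06 CPM in young and at 13.4, 32.0 and 24.6 CPM in aged (2.67 ± 0.38, adjusted p = 0.00445). Plscr2, a phospholipid scramblase gene, stood at 1.35, 1.03 and 3.55 CPM in young and at 13.4, 23.3 and 19.5 CPM in aged (2.93 ± 0.40, adjusted p = 0.00375). For Clca3a1 only 1, 2 and 2 young G2/M cells had a UMI, against 5, 13 and 5 aged cells. Mt1, a metallothionein gene, was called at 3.45 ± 0.53, and was 2.16 (adjusted p = 0.0751) without the 15 G2/M cells described below that held neutrophil transcripts. Cd9, the most abundant gene of the list, had a log2 fold change of −0.04. Stem-type cells were 21.3% to 29.9% of young and 30.7% to 56.3% of aged filtered cells, and the part of such a shift within the G2/M cells was not tested.

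Immediate early genes, which respond within minutes to stimulation or handling, gave 4 calls among 23, against 0.505% of all genes higher in aged cells. All 23 were above 0, as were 5157 of all 9695 genes, and their median log2 fold change was 0.86, beside 0.02 over all genes. Nr4a1, a nuclear receptor gene on chromosome 15, stood at 82.5, 112 and 303 CPM in young, 155, 1446 and 697 CPM in aged and 149, 125 and 359 CPM in CASIN. Aged 2 was the highest sample, the batch 2 samples exceeded the batch 1 samples of their own group, and young and aged overlapped. The mitochondrial share of UMIs in G2/M cells was also highest in aged 2, at 5.28%, with 4.26% in aged 3, 4.39% in CASIN 3, 3.68% in young 3 and 2.28% to 2.92% in batch 1, and aged 2 had the lowest share of ribosomal protein transcripts (27.9%, others 28.4% to 35.4%). The part of RNA quality in this result was not tested. Nr4a1 rose by 1.46 ± 0.30 (SE, adjusted p = 0.0471), with 0.72 in batch 1 and 1.71 in batch 2, and its call held in 11 of 25 alternative settings. It was lost without any 1 of the young or CASIN samples, with adjusted p from 0.0540 to 0.271 (without young 3). Nr4a2, its close relative, rose by 1.69 ± 0.33 (adjusted p = 0.0343), Atf3, a stress-induced transcription factor, by 1.95 ± 0.30 (adjusted p = 0.00727) and Fosl2, an AP-1 subunit, by 1.29 ± 0.24 (adjusted p = 0.0277). Atf3 had a log2 fold change of −0.09 in batch 1 and 2.24 in batch 2, so its call rests on the batch 2 samples, and it was lost without young 3 (1.31, adjusted p = 0.388). The calls of Nr4a2 and Fosl2 held in 15 and 16 of 25 alternative settings, and those of Nr4a1 and Nr4a2 were also lost without the aged 1 cell described above. Both were lost without young 1, young 2, young 3, CASIN 1 or CASIN 3, with adjusted p of 0.0524 to 0.135 for Nr4a2 and 0.0543 to 0.270 for Fosl2. Jund, the most abundant gene of the list, had 0.34 ± 0.17 (adjusted p = 0.473). Nr4a1 and Nr4a2 were also called in the other cells, at 1.78 and 2.26, and the test of the difference between the classes gave adjusted p = 0.386 and 0.54.

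Of the 9 genes lower in aged G2/M cells, Hmga2, a chromatin protein of fetal and proliferating stem cells, stood at 14.7, 16.3 and 68.5 CPM in young, 6.68, 24.6 and 25.2 CPM in aged and 4.52, 2.305 and 16.9 CPM in CASIN. Batch 2 samples were higher in every group, and within each batch the aged and CASIN samples lay below the young ones. Hmga2 fell by 1.44 ± 0.20 (SE, edgeR adjusted p = 0.00375), with −1.09 and −1.45 in the batches. Without young 3 it stood at −1.42 and was not called (adjusted p = 0.149). Trib3, a target of the integrated stress response, fell by 3.02 ± 0.39, and Slc7a11, the cystine transporter, by 1.88 ± 0.30. Trib3 stood at 1.54, 1.24 and 55.3 CPM in young and 0, 3.88 and 10.3 CPM in aged, and Slc7a11 at 0.39, 0.62 and 65.5 CPM in young and 0, 12.9 and 22.1 CPM in aged. Both lost their calls without young 3, Trib3 at −2.15 (adjusted p = 0.484) and Slc7a11 at −0.34 (adjusted p = 0.952). Slc7a11 also lost its call without aged 2 (adjusted p = 0.0548). Trim59, a ubiquitin ligase gene, fell by 0.93 ± 0.16, and its aged values (34.3, 16.8 and 16.9 CPM) all lay below the young ones (64.4, 65.1 and 35.5 CPM), but its call was lost without young 3 (adjusted p = 0.108) and without aged 1 (adjusted p = 0.0563). Gimap1, a GTPase gene of lymphoid cells, fell by 0.80 ± 0.12, a call that held in 23 of 25 alternative settings. Pck2, mitochondrial phosphoenolpyruvate carboxykinase, fell by 0.77 ± 0.15, but its call held in 12 of 25 and was lost without young 1, young 3, aged 2, aged 3, CASIN 1 or CASIN 3 (−0.82 to −0.53, adjusted p 0.0524 to 0.297).

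Among the called genes, the largest fold changes of aged over young belonged to granule genes and rested on few cells. S100a8, a subunit of calprotectin in neutrophils, was called at 9.03 ± 1.78 on the log2 scale (SE, adjusted p = 0.036), yet 2809 of its 2813 UMIs in aged 3 came from 1 cell and all 424 in aged 1 from another. Elane, neutrophil elastase, stood at 0.19, 0.41 and 15.7 CPM in young and 813, 342 and 219 CPM in aged, and the cell with most of it gave 847 of 852 UMIs in aged 1, 866 of 1056 in aged 2 and 406 of 426 in aged 3. The young samples had 1, 2 and 4 cells with a UMI of Elane and the aged samples 4, 11 and 7. The call of S100a8 was lost without young 1, young 2, young 3 or CASIN 3 (adjusted p 0.0543 to 0.136), and that of Elane without young 1, young 2 or aged 1 (adjusted p 0.0947 to 0.179). Over the 10721 genes with at least 50 UMIs in G2/M cells, the cell with most held a median of 0.985%, and for 24 genes it held over 25%. Of the 58 called genes 5 were among those 24 (S100a8, Cebpe, Wfdc21, Trem3 and Dmkn).

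**Figure D3:**
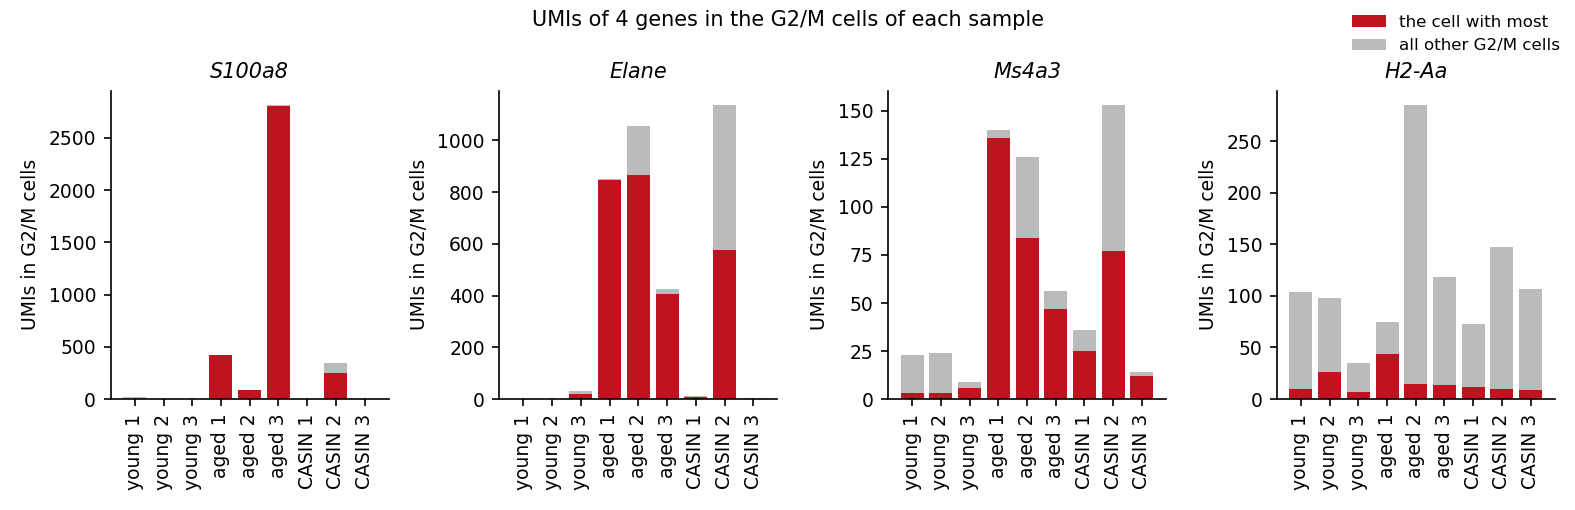
UMIs of S100a8, Elane, Ms4a3 and H2-Aa in the G2/M cells of each sample, split into the cell with most (red) and all other cells (grey). In the aged samples the first 3 genes come mostly from 1 cell each, whereas H2-Aa is spread over many cells except in aged 1, where 1 cell gives 44 of 75 UMIs.

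S100a8, S100a9 and Camp mark maturing neutrophils, which an LSK sort should leave out. Elane, Ctsg and Mpo, in contrast, were among the genes by which the study named myeloid progenitors within its LSK cells. Over 10 neutrophil genes, of which S100a8 was the most abundant, the summed level was 5.59, 2.27 and 0 CPM in young, 468, 43.4 and 3879 CPM in aged and 5.02, 144 and 2.56 CPM in CASIN. At least 2 of the 10 genes were detected in 15 of the 990 G2/M cells, 4, 1 and 0 in young, 1, 4 and 1 in aged and 0, 4 and 0 in CASIN. In a fit without these 15 cells, made after seeing the data, 36 genes were called between aged and young, 27 higher and 9 lower, and 32 of them were among the 58. Elane, Ms4a3 and Hp lost their calls, and S100a8 no longer passed the filter on low counts, so it was not tested. Elane then had 0.34 (adjusted p = 0.919) and Ms4a3, a gene of granulocyte progenitors, 0.36 (adjusted p = 0.851), while Hp, the haptoglobin gene, was still at 5.93 (adjusted p = 0.0819). In the same fit H2-Aa (2.01), H2-Eb1 (2.23), Aldh1a1 (2.71), Selp (1.84) and Nr4a1 (1.52) were still called. The summed level of 12 B cell genes was lower in G2/M cells, at 391 CPM against 7387 CPM in the other cells. Even so, 8 of these genes were higher in G2/M cells, 7 of them more than 2-fold, with a median ratio of 5.73. Ighm, the most abundant of the list in G2/M cells, stood at 155 CPM in G2/M cells and 3992 CPM in the other cells of aged 3. In young 1 it stood at 127 and 104 CPM. Igkc, the kappa light chain, stood at 0.2 to 274 CPM in G2/M cells across samples. Of 12 T and NK genes 2 were at 0, and Nkg7, a granule protein gene and the most abundant of the list at 181 CPM, was called at 0.76 ± 0.11 in aged over young and was not called without the 15 cells (0.48, adjusted p = 0.0971). Of 12 stromal and endothelial genes 2 were at 0 and of 11 red cell genes 1. Only 3 of the stromal and 1 of the red cell genes passed the filter and were tested. Of these 0 were called in any of the 3 comparisons, beside 0.598%, 0% and 0.144% of all genes, which is near the background.

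**Figure D4:**
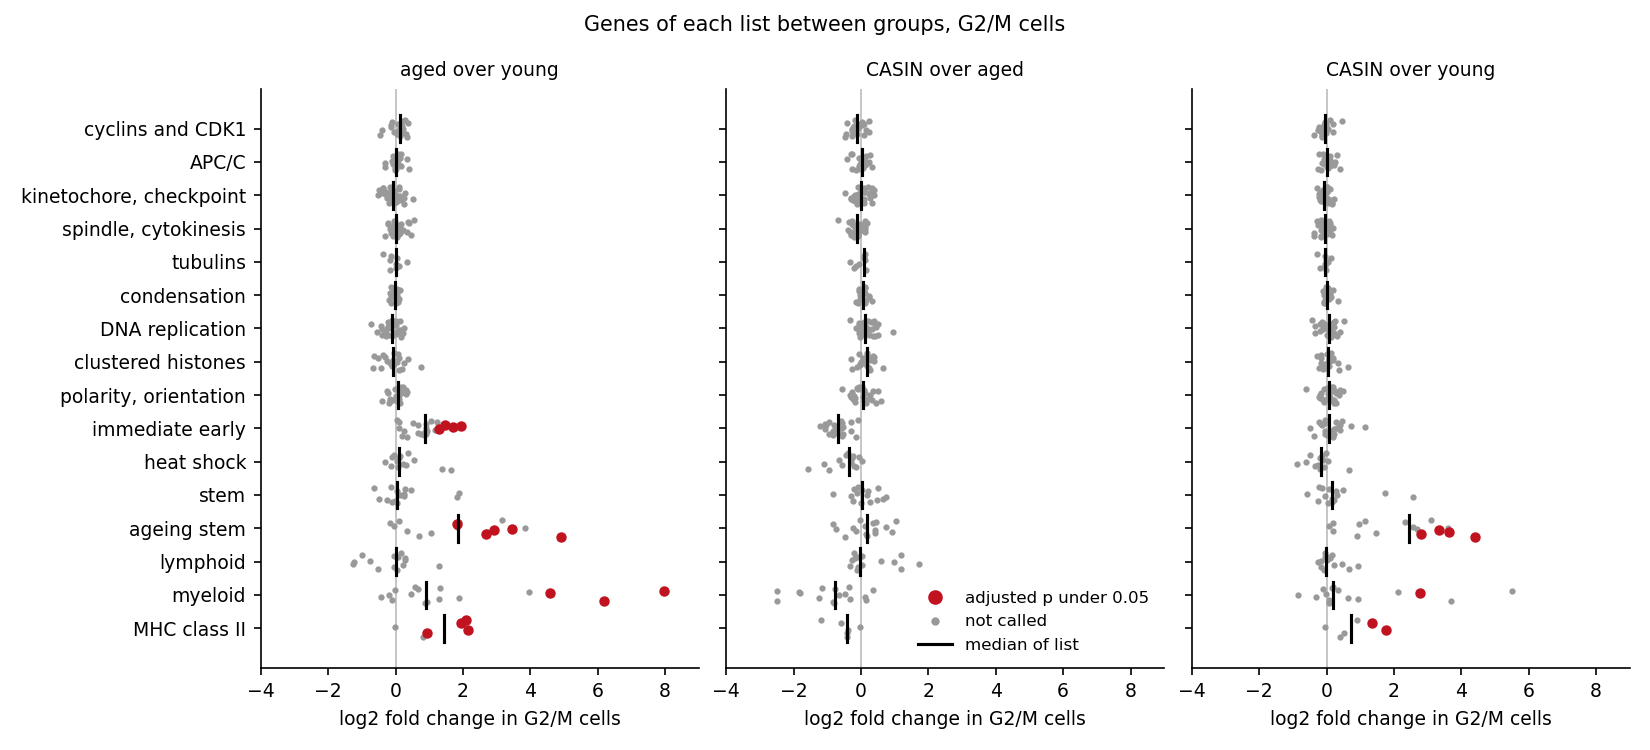
Log2 fold changes in G2/M cells of the tested genes of 16 lists for aged over young, CASIN over aged and CASIN over young (1 point a gene, red where the edgeR adjusted p was under 0.05, black bar at the list median). The cell cycle lists centre on 0 in all 3 comparisons, and red points lie in the immediate early, ageing stem, myeloid and MHC class II lists.

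Between CASIN and aged G2/M cells edgeR called 0 of 9695 genes (0%), DESeq2 1 (Nkg7), edgeR without the shared barcodes 0, and 743 genes had an unadjusted p under 0.05. Both comparisons share the aged samples, so the values are given side by side only. Of the immediate early list 0 of 23 genes were above 0 and 14 had an unadjusted p under 0.05, with a median log2 fold change of −0.69 beside −0.01 over all genes. Nr4a1 had −1.05 ± 0.31 (SE, adjusted p = 0.467), with −0.19 in batch 1 and −1.51 in batch 2, and Nr4a2 had −0.55 ± 0.33 (adjusted p = 0.757). The batch 2 values rest on aged 2 and aged 3 against CASIN 3 alone. Without aged 1 the genes Atf3, Jun, Junb, Ccl2 and Gm42418 were called, 5 in all, and without aged 2 only S100a9. The MHC class II list had a median of −0.41, with 0 of 6 genes above 0 (−0.14, with 2 of 6 above 0, without the aged 1 cell), the heat shock list −0.35 and the myeloid list −0.79. Without the 15 cells with neutrophil transcripts the myeloid median was −0.31, with 5 of 15 genes above 0, and Ms4a3 went from −1.81 to 0.73 (adjusted p = 0.814). The 179 cell cycle genes had a median of 0.03, from −0.70 for the mitotic kinesin gene Kif20a to 0.96 for the G1/S cyclin gene Ccne2, and 10 of them (5.59%) had an unadjusted p under 0.05, against 7.66% of all genes. When at least 6 of the 7 rule genes were required, 12 genes were called, 9 of them lower, among them the granule genes Mpo, Elane, Prtn3 and Ctsg.

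Cdc42, the target of CASIN, was measured at 376, 361 and 330 CPM in young, 382, 408 and 385 CPM in aged and 335, 339 and 408 CPM in CASIN. It was detected in 985 of the 990 G2/M cells, and its level in the other cells was 359 to 390 CPM. The log2 fold change was 0.13 ± 0.10 for aged over young (SE, edgeR adjusted p = 0.675), −0.12 ± 0.10 for CASIN over aged and 0.02 ± 0.10 for CASIN over young. These are transcript levels, and the activity of the GTPase was not measured here. Of the list of 26 tested polarity and spindle orientation genes, which includes effectors of Cdc42 and the spindle anchors Numa1 and Gpsm2, 0 were called in any of the 3 comparisons, beside 0.598%, 0% and 0.144% of all genes, so that 0 of 26 is near the background, with median log2 fold changes of 0.08, 0.04 and 0.06. Its most abundant gene, Dynll1, a dynein light chain, had −0.58 ± 0.15 in CASIN over aged (adjusted p = 0.441).

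Between CASIN and young G2/M cells 14 genes were called (0.144%), 12 higher (0.124%) and 2 lower (0.0206%), and 18 with DESeq2. The list of genes raised in aged stem cells again held calls, 4 of 16, with a median log2 fold change of 2.44 beside 0.0040 over all genes. Stem-type cells were 39.7% to 47.8% of CASIN and 21.3% to 29.9% of young filtered cells. The part of such a shift within the G2/M cells was not tested. Aldh1a1, at 14.1, 31.1 and 25.6 CPM in CASIN, was 2.82 ± 0.33 above young (SE, adjusted p = 0.00188), and Plscr2, at 7.53, 17.3 and 32.8 CPM, was 3.34 ± 0.36 above young (adjusted p = 0.000841). All CASIN samples lay above all young samples for both. Clca3a1 and Cavin2, a caveolar coat gene, were called at 4.41 and 3.63, from at most 2 and 3 cells with a UMI in a young sample and 4 to 17 and 5 to 20 in a CASIN sample, and both calls were lost without young 1, young 2 or CASIN 2 (adjusted p from 0.0884 to 0.128 for Clca3a1 and 0.205 to 0.404 for Cavin2). Of the MHC class II genes H2-Aa (1.34 ± 0.20, adjusted p = 0.0106) and H2-Eb1 (1.76 ± 0.23, adjusted p = 0.00573) were called, and S100a6, a calcium-binding protein gene, rose by 1.04 ± 0.15. The call of H2-Aa held in 17 of 25 alternative settings and was lost without young 1, young 2, CASIN 2 or CASIN 3 (1.15 to 1.38, adjusted p 0.0575 to 0.128) and without the aged 1 cell (1.30, adjusted p = 0.116), in fits where all samples share 1 estimate of the spread. That of H2-Eb1 held in 22 of 25 and was lost without young 2 or CASIN 2 (1.51 to 1.63, adjusted p 0.0561 to 0.0654). That of S100a6 held in 17 of 25 and was lost without young 1, young 2, CASIN 1 or CASIN 3 (adjusted p 0.0511 to 0.123) and without the 15 cells with neutrophil transcripts (adjusted p = 0.227). Hmga2 fell by 2.11 ± 0.21 (adjusted p = 0.000841), by 2.01 in each batch. Il21r, the interleukin 21 receptor gene, fell by 0.86 ± 0.14, but its CASIN values (40.7, 43.4 and 9.74 CPM) and young values (85.0, 71.1 and 17.3 CPM) overlapped across the batches, and its call was lost without young 1, young 2 or any 1 CASIN sample (adjusted p 0.0580 to 0.289). Without the barcodes that libraries share, 7 of the 14 calls remained, those of Hmga2, Plscr2, Aldh1a1, H2-Aa, H2-Eb1, Clec1a and Bmpr1a. Those of Clca3a1, Cavin2, S100a6, Il21r, Hp, Ms4a3 and Ncam1 were lost.

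**Figure D5:**
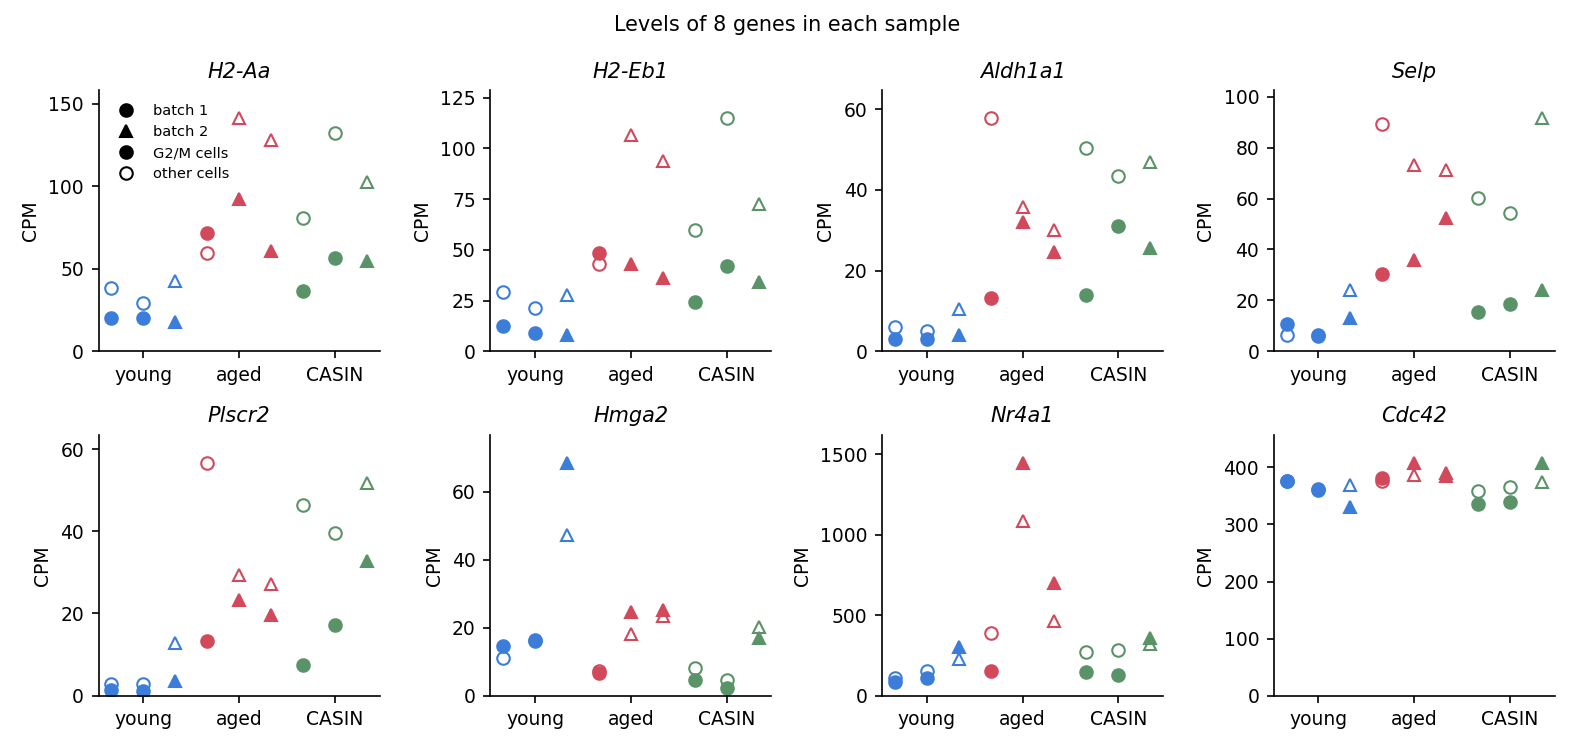
CPM of 8 genes in the summed G2/M cells (filled) and other cells (open) of each sample, circles for batch 1 and triangles for batch 2. H2-Aa, H2-Eb1, Aldh1a1, Selp and Plscr2 are low in all young samples, Hmga2 is highest in young 3, Nr4a1 is highest in aged 2, and Cdc42 lies between 330 and 408 CPM everywhere.

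To ask whether G2/M cells differed from the rest, the same contrast was tested in the other cells and as an interaction. In the other cells 603 of 13584 genes (4.44%) were called between aged and young, 3.8% higher and 0.64% lower, with many more cells behind each sum. Between CASIN and young 838 (6.17%) were called, 5.02% higher and 1.15% lower, and between CASIN and aged 0 (440 at an unadjusted p under 0.05). Of the 58 genes called in G2/M cells 24 were also called in the other cells in the same direction, as were 11 of the 14 between CASIN and young, and these comparisons share their libraries. The interaction of class with group called 59 of 13152 genes (0.449%) for aged over young, 7 (0.0532%) for CASIN over aged, all lower, and 188 (1.43%) for CASIN over young. The counts of 59 and 188 include the rule genes Ube2c and Cenpf, whose UMIs define the class. No MHC class II gene was called by the interaction in any of the 3 comparisons, and for aged over young its adjusted p was 0.534 for H2-Eb1, 0.545 for H2-Aa and 0.294 for Selp. For CASIN over young, 14 of 34 DNA replication genes, 11 of 19 condensation genes and 7 of the 32 kinetochore genes other than the rule gene Cenpf were called, all with a more positive change in G2/M cells. Of the 188 calls, 124 had a more positive and 64 a more negative change. The latter included 8 of 24 immediate early genes, 5 of 24 genes raised in aged stem cells and 4 of 21 stem genes. Birc5, which encodes the survivin subunit of the chromosomal passenger complex, had a log2 fold change of 0.02 ± 0.11 in G2/M cells and −0.72 ± 0.12 in the other cells (interaction 0.72 ± 0.10, adjusted p = 0.00174). Cells in S phase by the 7 genes named above were 9.40% to 12.4% of the other cells in young, 5.03% to 9.24% in aged and 4.32% to 7.43% in CASIN, so neither aged nor CASIN overlapped with young. These cells were called by detection without thinning, so their share depends on depth. The median depth of the other cells was 11978 to 14045 UMIs in young, 9927 to 10941 in aged and 9283 to 13393.5 in CASIN samples. The part of depth in the S-phase shares was not tested. Within batch 1 they were 12.4% and 9.40% in young, 5.03% in aged and 7.43% and 4.32% in CASIN, and within batch 2 10.3% in young, 9.24% and 7.61% in aged and 5.68% in CASIN. Against these S-phase cells alone, instead of all other cells, the interaction called 4, 6 and 1 genes.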

How the data were processed

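Droplet-based 3′ libraries of LSK cells from 9 samples were analysed. The deposited files hold raw counts of UMIs per gene and barcode, made by the authors with Cell Ranger 3.1.0 on mm10 (GRCm38); the CITE-seq libraries that the labels mention were not analysed here. Here, barcodes with 1000 to 40000 UMIs, at most 6000 genes and at most 10% mitochondrial UMIs were kept, 15975 of 32387 (library totals of 19237354 to 42780953 UMIs). A residual limit of 0.4 that the authors state would leave 15856, and the same 990 G2/M cells. No doublets were removed, and 42 G2/M cells (4.24%) had Scrublet scores in the highest 5%. Lineage genes were scored in cells thinned to 4000 UMIs (5 draws, mean), leaving out shallower cells.

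Counts were summed per sample and class and tested with edgeR 4.0.16 (TMM, filterByExpr, quasi-likelihood, all 9 samples, group and batch as terms), and the difference between classes in 1 fit with sample, class, class by group and class by batch. An adjusted p under 0.05 (Benjamini-Hochberg over all genes tested) counts as a call. Shares were compared by exact permutation tests over samples. Standard errors are those of the fitted log2 fold change, and CPM are computed without a pseudocount. limma 3.58.1 and DESeq2 1.42.0 ran in R 4.3.3, and the remaining steps in Python 3.11.15 with scanpy 1.11.5, numpy 2.4.6, scipy 1.17.1, pandas 2.3.3 and matplotlib 3.10.9. Scripts were tested on simulated data. Named were the rule genes, the label's markers, Cdc42, Nr4a1 and Nr4a2; per comparison up to 10 higher and 10 lower calls by size of change with a mean of at least 10 CPM and the same sign in both batches; the 5 leading interaction calls; and, per list, up to 4 calls and the most abundant gene. The extremes of the cell cycle genes and the genes called under 1 alternative alone, with Clec1a, Bmpr1a and Ncam1, were named after their values were seen. The G2/M rule and the 24 gene lists were chosen with earlier results of these data known. Alternatives were the number of rule genes, quality limits, barcodes, normalization, filter, batch term, replicate block and leaving out each sample. Leaving out shared barcodes, cells with neutrophil transcripts, or 1 cell of aged 1, was chosen after seeing the data.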

Additional observations from a re-analysis of the deposited data

Results flagged for a closer look

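Granule genes differed between G2/M cells and the other cells in their change from young to aged. By the interaction of class and group in edgeR, with an adjusted p under 0.05 for each, the log2 difference was 10.75 for S100a8, 9.08 for S100a9, 11.67 for Wfdc21, 8.53 for Hp, 8.38 for Elane, 7.31 for Cebpe and 4.26 for Ms4a3. Between CASIN and aged cells it was −7.65 for S100a9, −12.69 for Camp, −8.40 for Chil3 and −2.01 for Ms4a3, and between CASIN and young cells 6.47 for Hp and 2.25 for Ms4a3. Fitted differences of genes near 0 in a class depend on the prior count and are no bounds. Of S100a8, 2809 of 2813 UMIs in the G2/M cells of aged 3 were in 1 cell. In aged 3 the cell with most also held 3099 of 3105 UMIs of S100a9, 1164 of 1165 of Camp and 111 of 147 of Chil3. Ly6k, a gene of the Ly6 family, differed by −7.39 between CASIN and aged cells, and its 24 UMIs lay in 12 G2/M cells, 10 of them in 4 cells of aged 1 and 10 in 5 cells of aged 2. Ighg2b, an immunoglobulin heavy chain gene of plasma cells, had −10.20 for aged over young and −9.91 for CASIN over young, with up to 861 CPM in the other cells of aged 3 and 0 CPM in those of young 3.

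Among genes of the cell cycle, the change from young to aged was more positive in G2/M cells by 0.57 for Cks2. Between CASIN and young it was more positive by 0.72 for Birc5, 0.68 for Hist1h2ap, 0.58 for Dut (which keeps uracil out of DNA), 0.44 for Stmn1 (a regulator of microtubules) and 0.39 for Hmgb2 (a chromatin protein). The S-phase share of the other cells, called without thinning, was 9.40% to 12.4% in young, 5.03% to 9.24% in aged and 4.32% to 7.43% in CASIN. Its part in these differences was not tested.

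Jund differed between the classes by −0.71 for aged over young and by −0.53 for CASIN over young. Trib3 differed by −1.90 and Slc7a11 by −1.15 for aged over young. Both were highest in young 3 in either class, with 55.3 CPM of Trib3 in G2/M cells and 70.5 CPM in the other cells, and 65.5 CPM and 117 CPM of Slc7a11. Between CASIN and young, Hmga2 differed by −0.96, Vmp1, an autophagy gene, by −0.76, Cd9, a tetraspanin gene, by −0.85, Ifitm3, an interferon-induced gene, by −0.61, Dntt by 0.80 and Hbb-bt, a beta globin gene, by 0.88.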

How the results depend on the processing

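The sources of doubt are the batch, few G2/M cells in some samples (39 in aged 1) and barcodes shared between libraries. Over 274 alternatives to the shares and gene counts, 205 stayed close to the values reported and 69 moved. No difference larger than the spread between replicates (1 SD) changed sign. Smaller ones did in 10 of 121 alternatives to share differences, 6 for CASIN minus aged (0.16 points as reported, −0.65 without shared barcodes), 1 for CASIN minus aged and 3 for CASIN minus young in Flt3-type cells; of 935 alternatives to single called genes, 738 kept the call, 197 lost it and 0 reversed. Selp, Plscr2, H2-Aa and Aldh1a1 for aged over young, and Hmga2, Plscr2 and Aldh1a1 for CASIN over young, were called in 24 of 25 alternatives, all but the fit with no batch term. H2-Eb1 and H2-Ab1 for aged over young were called in 23 of 25, and not without 1 cell of aged 1. The causes of the moves below were not tested, except that no filter changes the genes tested and the thinned sums hold fewer UMIs.

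For stem-type cells, CASIN minus young was −1.27 percentage points with membership called at 8000 UMIs and −2.98 with at least 1 of 6 stem genes. The 58 genes called between aged and young in G2/M cells became 23 with no upper limits, 37 with sums thinned to the smallest, 36 without cells with neutrophil transcripts, 344 with no filter, 0 with no batch term and 30 with only the 2 groups. The 0 between CASIN and aged became 12 with at least 6 of 7 genes, 1 with thinned sums (Ms4a3), 1 with DESeq2 (Nkg7) and 170 with no filter. The 14 between CASIN and young became 8 with thinned sums, 7 without shared barcodes, 166 with no filter, 0 with no batch term and 9 with only the 2 groups. The interaction for aged over young called 264 genes with no filter, 30 with at least 4 and 103 with at least 6 of 7 genes, 2 without class by batch and 4 against S-phase cells. For CASIN over aged it called 70 with no filter, 19 with at least 6 of 7 genes and 0 without class by batch. For CASIN over young it called 464 with no filter, 111 with at least 4 of 7 genes, 1 without class by batch and 1 against S-phase cells. In the other cells no filter gave 387 for aged over young and 498 for CASIN over young.

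Leaving out 1 sample at a time, the share of G2/M cells differed by −4.15 to −1.49 (aged minus young), −1.16 to 1.505 (CASIN minus aged) and −3.68 to −1.70 points (CASIN minus young), and Flt3-type minus stem-type by 5.65 to 6.52. In stem-type cells the ranges were −1.87 to −0.16, −2.26 to −0.54 and −2.65 to −2.12 points, and in Flt3-type cells −3.06 to −0.71, 0.11 to 2.47 and −1.54 to 0.47. Genes called in G2/M cells ranged from 27 (without young 1) to 102 (without aged 1) for aged over young, with 36 without young 2, 37 without young 3 and 24 of the 58 among the latter, from 0 to 5 for CASIN over aged (5 without aged 1 and without CASIN 2), and from 5 (without young 1 or young 2) to 36 (without young 3) for CASIN over young, with 6 without CASIN 2. Interaction calls ranged from 39 to 200, 3 to 64 and 45 to 488, and calls in the other cells from 37 to 1006, 0 to 0 and 23 to 1744.

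Replicate numbers did not pair the samples: over 9 same-numbered pairs the correlation of deviations was −0.370 to 0.264 and exceeded 0.1 in 2. With a replicate block the counts were 59 (41 of them among the 58), 5 and 31.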
